A study of Homo sapiens with 9 samples.

Results

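The 3 RNA libraries labelled hPRM1 were compared with the 3 libraries of the hPRM2 group, gene by gene, in the table of 9 libraries and 57338 genes. Members of the comparison were the 11756 genes that reached 1 RPKM (reads per kilobase of gene, scaled to the counted reads of the library) in at least 3 of these 6 libraries. The steps of low values matched a gene length about 250 bases shorter than the annotated one. Levels of short RNAs may therefore exceed reads per kilobase of full length. All libraries are labelled as RNA of HEK293T, a human embryonic kidney line, 3 days after transient transfection with the reagent TransIT-LT1. The hPRM1 and hPRM2 groups are labelled as cells that received a plasmid for human protamine 1 or human protamine 2 fused to enhanced green fluorescent protein (EGFP), and the third group, the empty vector, received pcDNA3.1 with EGFP alone. Living cells with a high EGFP signal were sorted before RNA was extracted, and a 3′ kit (QuantSeq) that reads the ends of polyadenylated transcripts was used. By the labels every group shared the line, the EGFP tag, the transfection and the sort, and nothing in the labels says that the 3 replicates came from separate cultures, so the p-values measure the spread between libraries, which may be technical. The library numbers of the group labelled hPRM1 belong to another run of numbers than those of the other 6 libraries, so that the number series and the group cannot be told apart. Values are given in the order of replicates 1, 2 and 3, as levels in RPKM in the deposited scaling, and differences are those of mean log2(RPKM + 1), libraries labelled hPRM1 minus hPRM2, unless stated otherwise.

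Protamines are small, arginine-rich proteins that take the place of most histones in the nuclei of maturing spermatids and pack the DNA of sperm. PRM1 and PRM2 lie next to each other on chromosome 16 and are transcribed after meiosis, in round spermatids, and PRM2 protein is made as a precursor that is trimmed after it binds DNA. Somatic cells such as HEK293T do not normally use either gene. By its labels the comparison sets the 2 protamines side by side. The libraries labelled hPRM1 went against their label, as given next, so that differences cannot be read as those between the 2 protamines.

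The labelled transgene was found in the hPRM2 libraries and not in the libraries labelled hPRM1. PRM1 (ENSG00000175646, chromosome 16, 11280836 to 11281350, minus strand, GRCh38 with GENCODE 29 coordinates) was listed at 0 RPKM in all 9 libraries. At the estimated depths, a value of 0 allows up to 0.713 CPM (a floor of 3 reads) in the libraries labelled hPRM1, which covers counting error only. Whether the read end of the plasmid transcript lies inside the annotated PRM1 gene was not tested.
PRM2 (ENSG00000122304, chromosome 16, 11275639 to 11276480, minus strand) had 71224, 60050.2 and 36130.2 RPKM in the hPRM2 libraries and was listed at 0 in the 6 others. Its 3 values lay above all others, and the difference gave p = 0.1 in a two-sided exact permutation test, the smallest p that 3 libraries against 3 allow. PRM2 was called by limma as well, but it passed the filter through hPRM2 alone, so that this call is a description.
HBB (ENSG00000244734, chromosome 11, 5225464 to 5229395, minus strand), the beta chain of adult haemoglobin, had 892449, 798019 and 765727 RPKM in the libraries labelled hPRM1 and was listed at 0 in the 6 other libraries. The groups were fully apart (two-sided exact permutation test, p = 0.1). HBB passed the filter through the libraries labelled hPRM1 alone, so that its limma call is a description.
Markers of HEK293T cells followed the hPRM2 libraries: LIN28B, an RNA-binding protein of embryonic cells, had 13.6, 3.14 and 9.23 RPKM there, 15.9 to 19.4 RPKM in the empty vector, and 0 in each library labelled hPRM1. The libraries labelled hPRM1 therefore went against the cell type on their label, and they are named by that label throughout. Every direction given for them rests on it.

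**Figure D1:**
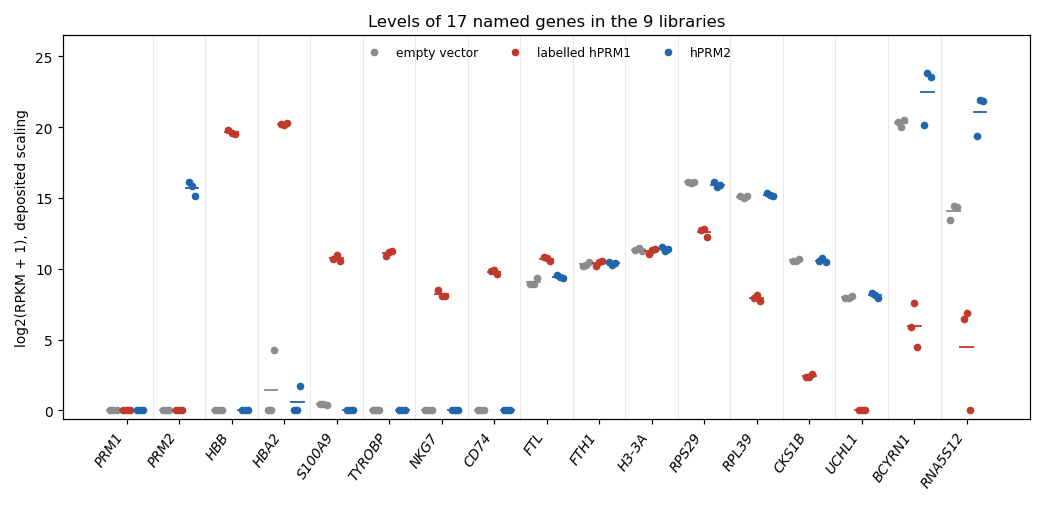
Levels of 17 genes in the 9 libraries as log2(RPKM + 1) in the deposited scaling, with 1 point per library, a bar at the mean of each group of 3, and the empty vector in grey, the libraries labelled hPRM1 in red and hPRM2 in blue. PRM2 is above 0 in blue alone, HBB, S100A9, TYROBP, NKG7 and CD74 are high in red, FTH1 and H3-3A are level in the 3 groups, and RPL39, CKS1B, UCHL1, BCYRN1 and RNA5S12 are low in red.

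The reads counted on genes, estimated from the spacing of low RPKM values, were 4210000 to 5860000 per library labelled hPRM1 and 1270000 to 2650000 per hPRM2 library, so that the hPRM2 values carry the larger counting error (two-sided exact permutation test, p = 0.1). Across the 11756 tested genes, which share gene length and library scaling, Pearson correlations of log2(RPKM + 1) lay between 0.930 and 0.938 within the libraries labelled hPRM1, between 0.696 and 0.885 within hPRM2 and between 0.235 and 0.319 across the groups. Replicate 1 of hPRM2 stood apart from replicates 2 and 3: it had 8856 genes at 1 RPKM or more, against 12396 and 13422, and the median standard deviation of a gene among hPRM2 libraries was 0.86 on the log2 scale with it and 0.40 without it. In the libraries labelled hPRM1 this standard deviation was 0.30. The number of genes at 1 RPKM or more was 10070, 10666 and 10042 there, a mean difference of -1299 genes from hPRM2 that lay within the spread (two-sided exact permutation test, p = 0.4). This difference was -2650 genes without replicate 1 of hPRM2 and -367 genes without replicate 3.

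More genes were lower than higher in the libraries labelled hPRM1 in the values as deposited, and the reverse held after rescaling. By limma, with an adjusted p of at most 0.05 and a difference of at least 2-fold, 1879 of the 11756 genes (16.0%) were higher and 4355 (37.0%) were lower than in hPRM2, together 53.0%. Median-of-ratios rescaling, which sets the libraries to an equal typical gene, gave 3657 higher (31.1%) and 2149 lower genes (18.3%), together 49.4%. The share of lower genes among the calls was 69.9% as deposited and 37.0% after rescaling, and the median difference of all tested genes moved from -0.97 to 0.49, a shift of 1.46. Quantile normalization gave 2897 higher and 3104 lower genes, with a median of -0.19. The rescaling factors came from the 7116 genes above 0 in all 6 libraries, and they set the typical gene of these near no difference. Direction for the typical gene therefore followed from the scaling chosen and is not a result. Each list below is given as deposited and after median-of-ratios rescaling. The shares of 16.0% higher and 37.0% lower as deposited, and of 31.1% and 18.3% after rescaling, are the background of every count of list members called. A member that stayed under 1 RPKM in every library of a group passed the filter through the other group alone and had to differ. Counts and medians of lists with many such members are therefore descriptions, given with the number of those members and not read against the background.
All 1879 genes called higher as deposited were also called higher after rescaling, and all 2149 genes called lower after rescaling were called lower as deposited. No gene was called in opposite directions by limma in the 2 scalings. A further 2206 genes were lower in the deposited scaling alone, 1778 were higher after rescaling alone, and 3744 were called in neither. For 7294 genes (62.0%) the values of the 2 groups did not overlap, and hPRM1-labelled values were the higher ones for 2232 (19.0%) and the lower ones for 5062 (43.1%). Of the 1879 higher genes, 899 were listed at 0 in all hPRM2 libraries, and of the 4355 lower genes, 335 were at 0 throughout the libraries labelled hPRM1. For such genes the fitted difference depends on the added 1 RPKM, so levels are given in its place.

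**Figure D2:**
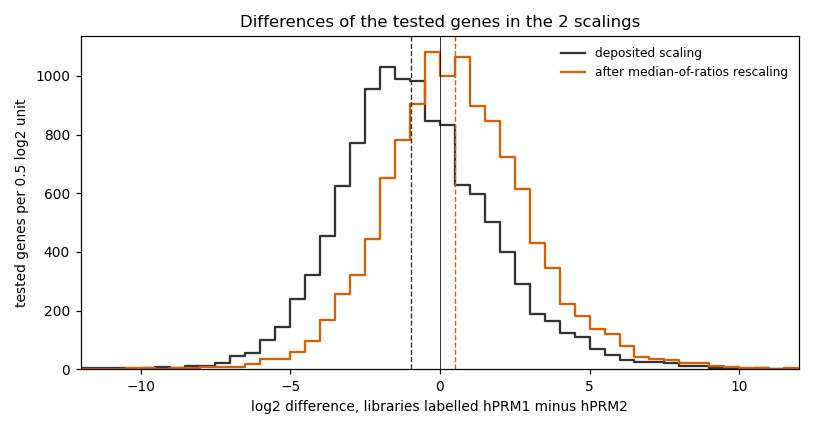
Number of tested genes per 0.5 unit of log2 difference (libraries labelled hPRM1 minus hPRM2), in black for the deposited scaling and in orange after median-of-ratios rescaling, over the range from -12 to 12. Dashed lines mark the medians at -0.97 and 0.49, which lie 1.46 apart. The lower quartile moved from -2.44 to -0.99 and the upper from 0.74 to 2.07. Genes did not all move by the same amount, since 1 RPKM was added after rescaling.

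**Figure D3:**
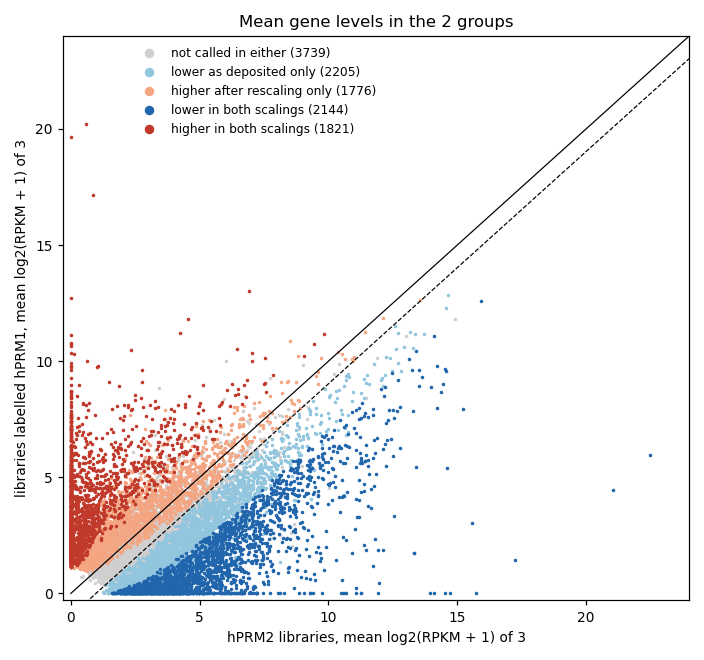
Mean log2(RPKM + 1) of 3 libraries labelled hPRM1 (vertical) against 3 hPRM2 libraries (horizontal) for 11685 tested genes, without the 71 whose level can depend on a person, coloured by the limma call in both scalings. The solid line is equality and the dashed line the median difference of -0.97, and the dark red points, called higher in both scalings, lie above the line of equality and the dark blue points, called lower in both, below it.

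The direction varied with level. Among the 189 genes with a mean of 1000 RPKM or more over the 6 libraries, 150 (79.4%) were lower and 13 (6.88%) were higher in the libraries labelled hPRM1. Among the 2191 genes under 3 RPKM, 352 (16.1%) were lower and 588 (26.8%) were higher. The same order stood after rescaling, with 59.8% lower and 12.7% higher in the top class and 6.94% lower and 45.7% higher in the lowest. The levels that define the classes come from the same 6 libraries, so these shares are a description. In the libraries labelled hPRM1, HBB, HBA2 and HBA1 made up 83.2% to 86.6% of the summed RPKM, whereas in hPRM2 BCYRN1 and RNA5S12 together made up 48.1%, 87.9% and 87.4%. The part of these genes in the lower values of other abundant genes was not tested. Shares of summed RPKM are not shares of reads, least of all for short RNAs such as BCYRN1 and RNA5S12.

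**Figure D4:**
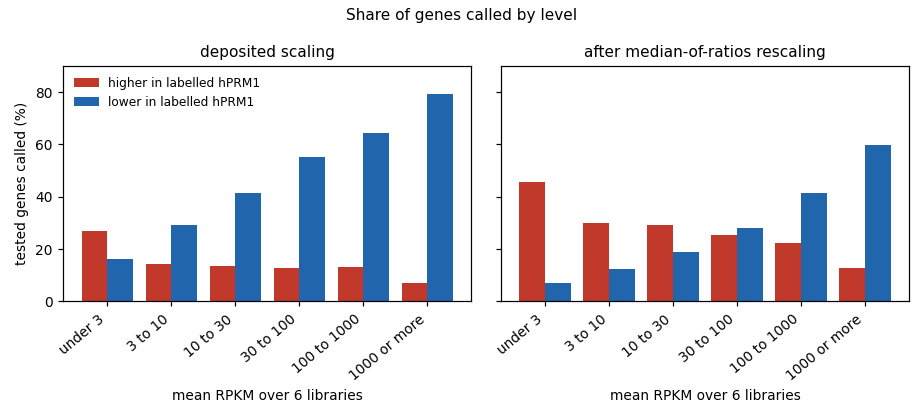
Percentage of tested genes called by limma as higher (red) or lower (blue) on the side labelled hPRM1, in 6 classes of mean RPKM over the 6 libraries, in the deposited scaling (left) and after median-of-ratios rescaling (right). From the lowest to the highest class, lower calls rise from 16.1% to 79.4% on the left and from 6.94% to 59.8% on the right.

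HBB, HBA2 and HBA1 had the highest RPKM of all genes in each library labelled hPRM1. Of 9 members of the globin list 7 passed the filter and were called higher in both scalings. For 4 of them, HBB, HBM, HBZ and AHSP, this followed from the filter, since they were listed at 0 in all hPRM2 libraries, and HBA2 and HBA1 reached 1 RPKM in a single hPRM2 library, so that the count is not read against the 16.0% of all genes called higher.
HBA2, an alpha chain of haemoglobin (ENSG00000188536, chromosome 16, 172876 to 173710), had 1223532, 1146418 and 1295699 RPKM in the libraries labelled hPRM1 and 0, 0 and 2.36 RPKM in hPRM2. HBA1, the neighbouring copy, had 149742, 115466 and 173073 RPKM and 0, 0 and 4.90 RPKM in the same order. In the empty vector these genes reached at most 17.98 and 5.72 RPKM. Neither gene overlapped between the groups. The longest GENCODE 29 transcripts of HBA1 and HBA2 are 93.0% identical, so their reads may have been split between the copies and each value is uncertain.
HBM, a minor alpha-like globin of the red cell lineage, had 1041, 855 and 725 RPKM, and AHSP, the chaperone of free alpha chains, had 208, 135 and 228 RPKM, and both were listed at 0 in hPRM2. HBQ1, a further alpha-like gene, had 48.9, 54.0 and 35.5 RPKM in the libraries labelled hPRM1 and 22.4, 5.49 and 6.52 RPKM in hPRM2, a difference of 2.15 (SE 0.57, limma adjusted p = 0.0195). HBD, the delta chain, stayed at 0, 0 and 0.786 RPKM beside the high HBB values, and HBE1, the embryonic chain, was listed at 0 in all 9 libraries.

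Other genes of late red cell development rose in part. In the list of reticulocyte maturation, 11 of 16 members were higher, 1 was lower and 4 were not called, and after rescaling 12 were higher (16.0% and 31.1% of all genes), with medians of 1.73 and 3.14. SLC25A37 (mitoferrin-1), the carrier that brings iron into mitochondria for heme, had 2663, 2556 and 2039 RPKM in the libraries labelled hPRM1 and 70.8, 7.44 and 10.3 RPKM in hPRM2. These groups lay apart, with a difference of 6.98 (SE 0.81, limma adjusted p = 8.61e-04). FAM210B, a mitochondrial protein of erythroid iron supply, was at 299, 269 and 222 RPKM against 40.2, 10.95 and 18.9 RPKM (3.61, SE 0.49). The lower member was YOD1, a deubiquitinase, with 0.567, 0.395 and 0.859 RPKM against 9.28, 6.01 and 7.33 RPKM.
Of 9 red cell membrane skeleton genes, 5 were higher and none was lower, and 8 were higher after rescaling (16.0% and 31.1% of all genes were higher). Of the 9, 1 passed the filter through the libraries labelled hPRM1 alone and 1 through hPRM2 alone. Without replicate 1 of hPRM2 7 were higher and 1 was lower as deposited. SLC4A1 (band 3), the anion exchanger of the red cell membrane, had 263, 131 and 229.7 RPKM in the libraries labelled hPRM1 and 2.16, 16.3 and 6.57 RPKM in hPRM2. GYPC, a glycophorin that anchors the skeleton, had 699, 516 and 478 RPKM against 0, 20.502 and 13.1 RPKM. Both pairs of groups were apart, and ADD1, an adducin subunit found in many tissues, differed less (1.48, SE 0.31, limma adjusted p = 0.00760).
Genes of heme synthesis were called about as often as all genes, with 2 higher (25%) and 3 lower (37.5%) of 8, against 16.0% and 37.0%, so that the list as a whole gave no result. ALAS2, the erythroid first enzyme, had 205, 68.5 and 297 RPKM and FECH, which inserts iron in the last step, had 9.22, 10.6 and 14.5 RPKM in the libraries labelled hPRM1, against 0 in each library and 0, 0.484 and 3.28 RPKM in hPRM2. UROS and UROD, enzymes of the middle steps, were lower as deposited, with differences of -1.94 and -2.95, and of these UROD alone was called lower after rescaling. The list median was -1.13 as deposited and 0.55 after rescaling, and so changed sign with the scaling.
Of 8 erythroid and megakaryocyte transcription factors, 6 were higher and none was lower, and 7 were higher after rescaling. All 6 that were higher as deposited stayed under 1 RPKM in every hPRM2 library, so that these counts are descriptions beside the 16.0% and 31.1% of all genes called higher. Without replicate 1 of hPRM2 1 member was lower. NFE2, a factor of globin and platelet genes, had 62.3, 74.2 and 63.3 RPKM and TAL1, a blood stem cell factor, had 45.0, 72.6 and 29.4 RPKM, against 0 and at most 0.894 RPKM in hPRM2. GATA1 and KLF1, which define the red cell lineage, had 3.64 to 6.25 RPKM and 4.51 to 6.89 RPKM and were listed at 0 in the 6 other libraries. GATA2 and LMO2 were not called, and LMO2 was called higher after rescaling.

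Genes of neutrophils, the most abundant white cells of blood, were high in the libraries labelled hPRM1. Of 24 members 23 passed the filter and were called higher in both scalings, but 20 of them passed through the libraries labelled hPRM1 alone, so that this count is a description. Listed at 0 in all hPRM2 libraries were 19 of the 24. Their summed level was 4966 to 5961 RPKM in the libraries labelled hPRM1, 0.713 to 8.55 RPKM in hPRM2 and 1.04 to 7.76 RPKM in the empty vector.
S100A9, a calcium-binding alarmin of neutrophils and monocytes, had 1617, 1989 and 1503 RPKM in the libraries labelled hPRM1 and was listed at 0 in hPRM2. Its partner S100A8 had 1091, 831 and 786 RPKM against 1.54, 0 and 2.54 RPKM. Neither gene overlapped between the groups. CSF3R, the receptor for granulocyte colony-stimulating factor, had 324, 351 and 340.1 RPKM, CXCR2, a receptor for interleukin-8, had 177, 201 and 222 RPKM and FPR1, a receptor for formylated bacterial peptides, had 173, 207 and 239.6 RPKM. All 3 receptors were listed at 0 in every hPRM2 library. MNDA, a nuclear protein of the myeloid lineage, reached 419.9 to 629 RPKM. The single member that failed the filter was CXCL8, the gene for interleukin-8.

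Monocyte, lymphocyte and platelet genes were higher as well. Members that passed the filter through the libraries labelled hPRM1 alone numbered 9 of 19 for monocytes, 12 of 19 for T cells, 14 of 17 for cytotoxic lymphocytes, 9 of 13 for B cells and 7 of 13 for platelets, so that the counts of these lists are descriptions beside the 16.0% and 31.1% of all genes called higher. Of 19 monocyte genes 15 were higher and none was lower, and 18 were higher after rescaling. TYROBP, the signalling adaptor DAP12, had 1913, 2349 and 2421 RPKM and LYZ (lysozyme) had 385, 622 and 321 RPKM, and both were listed at 0 in hPRM2. PSAP, a lysosomal protein of most cells, had 1305, 1165 and 924 RPKM in the libraries labelled hPRM1 and 287, 138 and 155 RPKM in hPRM2, a difference of 2.604 (SE 0.34, limma adjusted p = 0.00129). The members not called as deposited included CYBA, CPVL and CST3, and of these CYBA was not called after rescaling either.
T cell genes gave 15 higher and 0 lower of 19, and after rescaling all 19 were higher. CD3D and CD3E, chains of the T cell receptor complex, had 20.7, 27.6 and 40.2 RPKM and 27.7, 48.3 and 45.7 RPKM, and CD247, its zeta chain, had 151, 218 and 219 RPKM, all against 0 in hPRM2. IL7R, the receptor for the survival cytokine interleukin-7, had 67.9 to 98.0 RPKM against 0.
Among cytotoxic lymphocyte genes, 16 of 17 were higher in both scalings. NKG7, a granule membrane protein, had 365, 268 and 273 RPKM and GNLY (granulysin), a pore-forming granule protein, had 278, 295 and 126 RPKM. Both were listed at 0 in hPRM2.
B cell genes gave 11 higher of 13, and all 13 after rescaling. MS4A1 (CD20) had 14.8, 19.0 and 15.2 RPKM and CD79A, a signalling chain of the B cell receptor, 23.01, 30.4 and 26.2 RPKM, against 0 in the 6 other libraries.
Platelet genes gave 10 higher and 0 lower of 13, from a list of 22, and 12 higher after rescaling. PF4 (platelet factor 4) had 290.5, 460.2 and 416 RPKM and PPBP, a related chemokine, 8.07, 17.9 and 13.2 RPKM, both against 0 in hPRM2, and NRGN, SPARC and CLU were not called. GP1BB, a chain of the von Willebrand factor receptor, was called at 1.38 with an adjusted p of 0.0404 (limma), and lost the call without replicate 2 or replicate 3 of either group.

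Genes of leukocyte signalling were higher with them. In the list of leukocyte signalling and transcription factors 26 of 30 were higher and none was lower, and 29 were higher after rescaling. As 17 of the 30 passed through the libraries labelled hPRM1 alone, these counts are descriptions beside the 16.0% and 31.1% of all genes called higher. ITGB2, the beta-2 integrin chain, had 1367, 1397 and 1096 RPKM against 0, 0 and 0.332 RPKM, and CD74, the invariant chain of antigen presentation, had 897, 977 and 798 RPKM against 0. RAC2, a small GTPase of blood cells, had 461, 542 and 509 RPKM against 0.306, 0 and 0.505 RPKM.
Outside the lists, the largest rises of protein-coding genes included LTB (lymphotoxin beta) at 1499, 2190.5 and 1622 RPKM, S100A6 at 1074, 1024 and 815 RPKM and S100A4 at 962, 1266 and 923 RPKM, the last 2 being calcium-binding proteins of motile cells. In hPRM2, LTB and S100A6 were listed at 0 and S100A4 at 0, 2.74 and 0 RPKM. Among other gene types the largest rises were in the small nuclear RNA pseudogenes RNU4-62P, RNU6-817P, RNU6-268P and RNU1-67P and in NCF1C, a pseudogene of a neutrophil oxidase subunit. RNU4-62P had 1262, 1818 and 1856 RPKM against 0, and reads of such pseudogenes may be shared with their parent genes.
Interferon-stimulated genes were higher in 17 of 18 cases in both scalings, with OAS3 as the exception, where 16.0% and 31.1% of all genes were higher. Of the 18, 7 passed the filter through the libraries labelled hPRM1 alone. IFITM2, a membrane protein that blocks virus entry, had 6559, 9842 and 8756 RPKM in the libraries labelled hPRM1, 179, 82.0 and 121 RPKM in hPRM2 and 180.2 to 399.6 RPKM in the empty vector. The groups were apart (6.08, SE 0.34, limma adjusted p = 1.00e-04). IRF1, a transcription factor of the response, had 109, 133 and 139 RPKM against 3.06, 16.0 and 9.66 RPKM, whereas IFI6 varied from 56.3 to 289 RPKM among the libraries labelled hPRM1. IFITM2 has close copies, and reads may be shared with them.

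A few lymphocyte genes had high levels in hPRM2 as well. CCL5, a chemokine of T cells, had 231, 279 and 220.4 RPKM in the libraries labelled hPRM1, 149, 594 and 452 RPKM in hPRM2 and 32.4, 51.7 and 41.4 RPKM in the empty vector. It was called in neither scaling (-0.50, 95% interval -1.79 to 0.80). LCK, the kinase that starts T cell receptor signalling, had 21.7, 29.5 and 27.1 RPKM against 70.6, 45.3 and 33.3 RPKM in hPRM2 and at most 3.03 RPKM in the empty vector, and its fitted difference changed sign from -0.85 as deposited, not called, to 1.03 after rescaling, where it was called higher (limma adjusted p = 0.0393). SPIB, a factor of B cells, had 9.82, 15.7 and 10.99 RPKM against 27.6, 14.5 and 16.2 RPKM and was listed at 0 in the empty vector, and its difference likewise went from -0.61, not called, to 1.204, called higher (limma adjusted p = 0.0197). In hPRM2 these levels stood beside 0 RPKM for CD3D, CD3E, MS4A1 and CD79A in all 3 libraries.

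**Figure D5:**
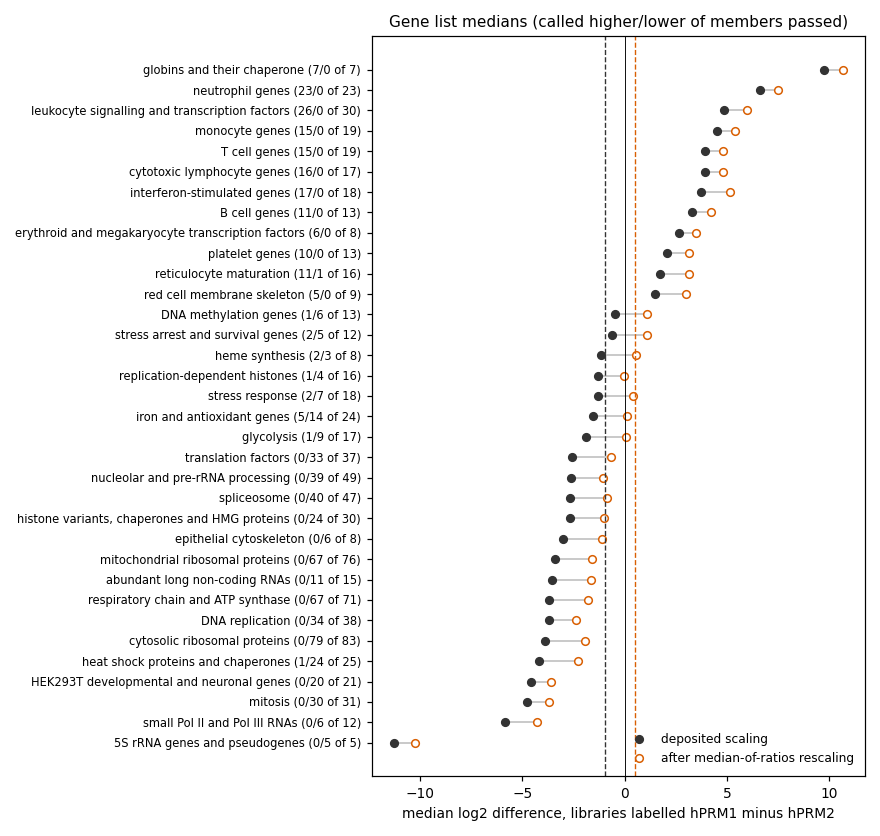
Median log2 difference (libraries labelled hPRM1 minus hPRM2) of the 34 gene lists with at least 5 members passing the filter, as deposited (filled) and after median-of-ratios rescaling (open), with dashed lines at the medians of all genes, -0.97 and 0.49. Numbers in brackets give members called higher and lower as deposited, of those that passed, many of which passed through 1 group alone in the blood cell, HEK293T, mitosis and 5S lists. Blood cell and interferon lists lie to the right of both lines while ribosomal, mitochondrial, mitotic and HEK293T lists lie to the left.

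Genes that mark HEK293T cells were low or at 0 in the libraries labelled hPRM1. Of 29 developmental and neuronal genes, 21 passed the filter, and 20 of these were lower in both scalings. As 17 of the 21 passed through hPRM2 alone, this count is a description and is not read against the 37.0% and 18.3% of all genes called lower. Listed at 0 in all 3 libraries labelled hPRM1 were 18 of the 29 genes. The summed level of the list was 42.1 to 50.9 RPKM there, 2676 to 6449.6 RPKM in hPRM2 and 4364 to 6188 RPKM in the empty vector.
UCHL1, a neuronal deubiquitinase, had 315, 276 and 249.7 RPKM in hPRM2 and 244, 247 and 263 RPKM in the empty vector, and was listed at 0 in the libraries labelled hPRM1. LHX1, a transcription factor of the embryonic kidney, had 63.4, 261 and 201 RPKM in hPRM2 against 0 and 10.7 to 23.05 RPKM in the empty vector. HOXA9, a patterning factor, had 0.385, 0 and 0.106 RPKM in the libraries labelled hPRM1 and 41.2, 50.02 and 30.9 RPKM in hPRM2. None of these 3 genes overlapped between the groups.
CKB, brain creatine kinase, had 9.13, 6.97 and 10.7 RPKM against 5061, 1311 and 1637 RPKM, with replicate 1 of hPRM2 above the others. HMGA1, an architectural chromatin protein, had 23.4, 31.5 and 30.002 RPKM against 293, 218 and 277 RPKM. IGF2BP2 was the single member not called (0.22, SE 1.04), and its hPRM2 values ran from 0.768 to 32.1 RPKM.
The same libraries held the high neutrophil, lymphocyte and globin values given above. In bulk RNA, fewer cells of a type and less RNA per cell cannot be told apart.
Several markers of other tissues were at or near 0. Of 12 hepatocyte genes 2 passed, ALB and TTR were at most 0.917 RPKM in the 9 libraries, and SERPINA1, a protease inhibitor made by liver and myeloid cells, was higher at 38.0, 44.0 and 44.2 RPKM against 0. Of 11 skeletal muscle genes 2 passed, CKM and MYH7 were listed at 0 in all libraries, and TTN (titin) had 2.91, 5.20 and 4.26 RPKM against 0. TNNT1, the troponin T of slow muscle, went the other way, with 2.49, 1.65 and 1.12 RPKM in the libraries labelled hPRM1, 0, 55.5 and 34.5 RPKM in hPRM2 and 40.3, 53.5 and 63.2 RPKM in the empty vector. Its difference of -2.23 was not called, but was called lower without replicate 1 of hPRM2. Of 12 spermatid genes 2 passed, AKAP4, a sperm tail protein, was listed at 0 in all libraries, and LDHC, a testis lactate dehydrogenase, had 32.6, 5.70 and 9.03 RPKM in hPRM2, 9.87, 13.5 and 22.5 RPKM with the empty vector, and was listed at 0 otherwise. TNP1, the transition protein that precedes protamines on DNA, was listed at 0 in all 9 libraries.

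Genes of cell division were low in the libraries labelled hPRM1. In the mitosis list 30 of 31 members were lower, and 29 were lower and 1 was higher after rescaling. Of these members 16 passed the filter through hPRM2 alone, so that the counts are a description beside the 37.0% and 18.3% of all genes called lower. Their summed level was 50.8 to 54.7 RPKM in the libraries labelled hPRM1, 4051 to 6519 RPKM in hPRM2 and 7323 to 7607 RPKM in the empty vector.
CKS1B (ENSG00000173207), a subunit of cyclin-dependent kinases, had 4.02, 4.20 and 4.89 RPKM in the libraries labelled hPRM1 and 1498, 1702 and 1397 RPKM in hPRM2, where the empty vector had 1529, 1479.8 and 1614 RPKM. The difference was -8.16 (SE 0.25, limma adjusted p = 1.99e-05) as deposited and -6.35 after rescaling, with no overlap. PRC1 (ENSG00000198901), a microtubule bundler of the midzone, had 0.368, 1.01 and 0.481 RPKM against 833, 498 and 410.3 RPKM. TOP2A, the topoisomerase that untangles sister chromatids, had 1.02, 1.60 and 0.973 RPKM against 943, 175 and 256 RPKM. The exception was CDC25B, a phosphatase that activates mitotic kinases, with 28.2, 25.4 and 23.9 RPKM against 10.7, 20.6 and 10.7 RPKM, which was called higher after rescaling.
Of 38 DNA replication genes 34 were lower and none was higher, and 26 were lower after rescaling. As 14 of them passed through hPRM2 alone, these counts are descriptions beside the 37.0% and 18.3% of all genes called lower. POLD2, a subunit of DNA polymerase delta, had 24.7, 25.5 and 33.8 RPKM against 484, 242 and 297 RPKM, and RRM1, a subunit of ribonucleotide reductase, had 8.004, 7.41 and 5.12 RPKM against 424, 119 and 145 RPKM. GINS3, a helicase subunit, was uneven in hPRM2, at 7.08, 388 and 742 RPKM, against 9.99 to 18.5 RPKM in the empty vector, and lost its call when any 1 library labelled hPRM1 was left out.
Promoters of mitotic genes often carry a CCAAT box together with a CHR element, and both are shown here because members of this list moved together. Sequences are the 250 bases before the annotated start from RefSeq (GRCh38.p14), 5′ to 3′ on the strand of the gene, with CCAAT and TTTGAA, on either strand, in capitals. The CKS1B window is chr1:154974431-154974680, plus strand, and the PRC1 window is chr15:90994536-90994785, minus strand.
CKS1B: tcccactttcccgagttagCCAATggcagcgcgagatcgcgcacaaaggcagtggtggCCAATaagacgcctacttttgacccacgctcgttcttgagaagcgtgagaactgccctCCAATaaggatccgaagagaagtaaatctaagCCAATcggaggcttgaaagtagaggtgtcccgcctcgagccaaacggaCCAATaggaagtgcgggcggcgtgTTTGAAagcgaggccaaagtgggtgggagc
PRC1: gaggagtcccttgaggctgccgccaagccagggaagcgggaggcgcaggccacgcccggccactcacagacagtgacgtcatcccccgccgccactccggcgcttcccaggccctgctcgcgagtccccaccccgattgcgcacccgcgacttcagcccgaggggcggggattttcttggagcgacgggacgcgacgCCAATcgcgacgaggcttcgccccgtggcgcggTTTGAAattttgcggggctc
CCAAT was found on either strand in 19 of the 25 promoters with an entry among the tested mitosis genes (76.0%) and in 33.0% of all 27305 promoters of this length. TTTGAA was found in 11 of the 25 (44.0%) and in 13.6% of all, and both together in 10 of the 25 (40%) and in 4.85% of all. For the DNA replication list, which fell as well, 20 of 33 promoters held CCAAT (60.6%) and 1 of 33 held TTTGAA (3.03%). A match is a description of the letters and not of a bound site.
For comparison, ALAS2, the erythroid enzyme that was listed at 0 in hPRM2, had 1 match to AGATAA, which erythroid factors such as GATA1 bind, in its window chrX:55030978-55031227 (minus strand), shown in capitals as its reverse complement. Of all promoters 9.37% held this motif on either strand, and 0 of the 12 promoters with an entry in the reticulocyte list did. TYROBP held 1 match to GAGGAAGT, a motif of the myeloid factor PU.1, also as its reverse complement, in chr19:35908296-35908545 (minus strand). The windows of S100A9, CSF3R and CYBB, searched in the same way, held 0 matches, and TYROBP is shown because it held 1. Among the 51 promoters with an entry in the neutrophil, monocyte and leukocyte signalling lists 7 held it (13.7%), against 2.13% of all.
ALAS2: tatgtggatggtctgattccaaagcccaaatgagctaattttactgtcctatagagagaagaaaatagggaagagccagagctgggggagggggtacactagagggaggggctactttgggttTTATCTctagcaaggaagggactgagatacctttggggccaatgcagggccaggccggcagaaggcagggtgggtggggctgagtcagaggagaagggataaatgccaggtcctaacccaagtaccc
TYROBP: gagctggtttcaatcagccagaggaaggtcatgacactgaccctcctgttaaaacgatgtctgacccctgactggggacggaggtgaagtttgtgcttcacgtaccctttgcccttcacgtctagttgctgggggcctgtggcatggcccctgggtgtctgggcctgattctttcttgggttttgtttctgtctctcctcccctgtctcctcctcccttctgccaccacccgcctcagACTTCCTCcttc

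Most cytosolic ribosomal protein genes were lower in the libraries labelled hPRM1 in both scalings. Of 83 cytosolic ribosomal protein genes 79 were lower and none was higher as deposited, and 52 were lower and 2 higher after rescaling (37.0% and 18.3% of all genes were lower), with medians of -3.88 and -1.95 against -0.97 and 0.49 for all genes. The summed level was 48775 to 56792 RPKM in the libraries labelled hPRM1, 496603 to 621392 RPKM in hPRM2 and 455710.4 to 533241 RPKM in the empty vector. Of all tested genes with a mean of 1000 RPKM or more, 79.4% were lower as deposited and 59.8% after rescaling (medians -4.16 and -2.23). At 100 to 1000 RPKM these shares were 64.4% and 41.5%. Whether this list, and the translation, nucleolar, spliceosome, mitochondrial and chaperone lists below, differ from genes of like level was not tested.
RPS29 had 6743, 7048 and 4762 RPKM in the libraries labelled hPRM1 and 70878, 56295 and 60709.7 RPKM in hPRM2, a ratio of means of 10.1 in favour of hPRM2. RPL39 had 246, 283 and 205 RPKM against 40902, 38086 and 35755 RPKM, a ratio of 156. Both genes code for very small subunit proteins, their groups did not overlap, and the fall of RPL39 was the larger by these ratios. The members not called as deposited included RPS10, RPL28 and RPLP2, and RPL28 and RPLP2 were called higher after rescaling. RPLP2, a stalk protein, had 5189.8, 7348 and 6756 RPKM against 9594, 15019 and 12024 RPKM, and differences within the list ran from -8.65 for RPL22L1 to -0.56 for RPL28. Many ribosomal protein genes have processed pseudogenes, and reads may be shared with them.
Translation factors gave 33 lower and 0 higher of 37, but 15 lower (40.5%, against 18.3% of all genes) and 1 higher, EIF1, after rescaling. EEF1B2, an exchange factor of elongation, had 47.7, 45.3 and 59.6 RPKM against 3437, 2517 and 2304 RPKM (-5.72 as deposited and -3.79 after rescaling). EEF2, which moves the ribosome along the mRNA, had 7045, 8034 and 7363 RPKM against 23529.6, 22987 and 31610.3 RPKM, and its difference was -1.79 as deposited and 0.15 after rescaling (95% interval -0.32 to 0.62). PABPC1, which binds poly(A) tails, likewise turned from -1.29 to 0.65, and lost its call as deposited without any 1 library except replicate 1 of hPRM2.
Nucleolar genes gave 39 lower of 49 as deposited and 21 (42.9%) after rescaling, against 37.0% and 18.3% of all genes. NPM1 (nucleophosmin), a ribosome assembly and histone chaperone, had 18.4, 11.9 and 15.6 RPKM against 2896, 725 and 688 RPKM (-6.14, SE 0.60). FBL (fibrillarin), the methyltransferase of rRNA, had 63.6, 70.5 and 63.2 RPKM against 728, 975 and 1067 RPKM.
Spliceosome genes gave 40 lower of 47 as deposited, and 15 lower (31.9%) and 3 higher (SRSF5, SRSF11 and PRPF6) after rescaling, against 37.0% and 18.3% of all genes lower. Without replicate 1 of hPRM2 23 were lower after rescaling. Of all tested genes at 30 to 100 RPKM 28.0% were lower after rescaling, and of those at 100 to 1000 RPKM 41.5%. SNRPE, an Sm core protein, had 10.2, 1.72 and 3.04 RPKM against 2399.6, 1494 and 1215 RPKM, whereas PRPF8, the large protein at the catalytic centre, had 189, 301 and 210.1 RPKM against 1073, 390.2 and 588 RPKM and turned from -1.45 to 0.48 after rescaling. PRPF8 lost its call as deposited without any 1 library labelled hPRM1 and without replicate 3 of hPRM2.

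Most mitochondrial genes of nuclear origin were lower in both scalings, where 37.0% and 18.3% of all genes were lower. Of 71 respiratory chain and ATP synthase genes 67 were lower, and 50 were lower and 1 (ATP5F1D) higher after rescaling, with medians of -3.71 and -1.77. NDUFB1, a subunit of complex I, had 57.5, 60.7 and 57.4 RPKM in the libraries labelled hPRM1 and 9620.4, 4892 and 4117 RPKM in hPRM2. COX7C, a subunit of cytochrome c oxidase, had 38.7, 19.4 and 20.2 RPKM against 8361, 1442 and 1606 RPKM. Replicate 1 of hPRM2 was the highest for both, and no library of the other group came near. Of 76 mitochondrial ribosomal protein genes 67 were lower, and 46 after rescaling (medians -3.38 and -1.60). MRPL21 was at 17.9, 19.3 and 15.8 RPKM against 420.0, 387 and 463 RPKM. Mitochondrially encoded genes had been removed from the table by the authors.
Chaperones gave 24 lower and 1 higher of 25, and 16 lower after rescaling, against 37.0% and 18.3% of all genes lower. HSP90AA1, the inducible cytosolic HSP90, had 48.3, 45.3 and 48.8 RPKM against 1613, 3135 and 2783 RPKM, and CCT2, a subunit of the chaperonin that folds actin and tubulin, had 12.8, 20.4 and 18.5 RPKM against 1474, 1522 and 1479 RPKM. The higher member was HSPA1A, an inducible HSP70, with 71.2, 106 and 82.7 RPKM against 4.12, 2.61 and 1.80 RPKM. Its near-identical copy, HSPA1B, was lower, with a difference of -4.82, and reads could have been split between the copies, so both values are uncertain.
In the cytoskeleton list of 8 genes 6 were lower as deposited, and after rescaling 4 were lower and TUBA1A was higher, against 37.0% and 18.3% of all genes lower. Of the 8, 1 passed the filter through hPRM2 alone. TUBA1B, an alpha-tubulin, had 133, 135 and 144 RPKM against 4122, 1273 and 1554 RPKM. ACTG1, cytoplasmic gamma-actin, had 714, 676 and 678 RPKM against 3415, 1079 and 1397 RPKM, and its difference was -1.32 as deposited and 0.61 after rescaling. ACTG1 lost its call as deposited without any 1 library except replicate 2 of hPRM2.

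Chromatin genes did not move as 1 block. Of 30 histone variants, histone chaperones and HMG proteins 24 were lower and none was higher as deposited. After rescaling 15 were lower and 3 (H2AJ, H3-3A and H3-3B) higher. In the same order of scalings, 37.0% and 18.3% of all genes were lower, and 16.0% and 31.1% were higher. H2AZ1, the H2A.Z variant at active promoters, had 62.5, 49.8 and 56.5 RPKM in the libraries labelled hPRM1 and 2466, 1292 and 1514 RPKM in hPRM2. H3-3A, a gene for the replacement histone H3.3, had 2111, 2577 and 2689 RPKM against 2971, 2459 and 2728 RPKM. The H3-3A groups overlapped as deposited (-0.15, 95% interval -0.58 to 0.29), while rescaling gave 1.79 (1.37 to 2.21).
Of 52 replication-dependent histone genes, whose transcripts normally lack poly(A) tails, 16 passed the filter. As deposited 4 were lower and 1 was higher, and after rescaling 3 were lower and 3 higher. The lower shares were 25% and 18.8%, against 37.0% and 18.3% of all genes. The higher shares were 6.25% and 18.8%, against 16.0% and 31.1%, so that neither direction was in clear excess with all 6 libraries. Without replicate 1 of hPRM2, 9 were lower as deposited and 5 after rescaling. H4C3 had 69.1, 134 and 41.4 RPKM against 2814, 3944 and 7831 RPKM, and the other lower genes were H4C5, H4C14 and H2BC21. The higher gene was H2AC6, with 21.9, 20.2 and 13.95 RPKM against 8.09, 9.07 and 3.95 RPKM. H1-2, a linker histone, was listed at 0 in replicate 1 of hPRM2 and at 176 and 252 RPKM in the other two, and was not called.
Genes of DNA methylation gave 6 lower and 1 higher of 13 as deposited, and 2 lower and 4 higher after rescaling, with medians of -0.47 and 1.09. The deposited shares were 46.2% lower and 7.69% higher, against 37.0% and 16.0% of all genes. The rescaled shares, 15.4% lower and 30.8% higher, were near the 18.3% and 31.1% of all genes. Of the 13, 2 passed the filter through hPRM2 alone. Without replicate 1 of hPRM2 the medians were -1.06 and 0.39. DNMT1, the maintenance methyltransferase, had 149, 233 and 191 RPKM in the libraries labelled hPRM1 and 1511, 853 and 900.0 RPKM in hPRM2. It was lower as deposited (-2.48, SE 0.32, limma adjusted p = 0.00121) and was not called after rescaling (-0.54, adjusted p = 0.0977). UHRF1, which guides DNMT1 to replicated DNA, and TET1, which oxidizes 5-methylcytosine, were lower in both scalings. TET2 was higher in both, at 3.801, 6.23 and 5.48 RPKM against 1.49, 1.03 and 1.51 RPKM (1.38, limma adjusted p = 0.0213).

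Metabolic and stress genes were mixed. Of 17 glycolysis genes 9 were lower and 1 was higher as deposited, and 5 were lower and 4 higher after rescaling (medians -1.87 and 0.05, the latter 0.25 without replicate 1 of hPRM2). The lower shares were 52.9% and 29.4%, against 37.0% and 18.3% of all genes, and the higher shares 5.88% and 23.5%, against 16.0% and 31.1%. LDHB, the heart-type lactate dehydrogenase, had 46.7, 50.02 and 45.3 RPKM against 3030.2, 2330.2 and 2336 RPKM, and GAPDH 191, 326 and 211 RPKM against 1995, 2161 and 2316 RPKM. The higher gene was SLC2A3, the glucose transporter GLUT3, with 345, 714 and 481 RPKM against 0, 8.65 and 4.12 RPKM.
Iron and antioxidant genes gave 5 higher and 14 lower of 24, and 9 higher and 6 lower after rescaling. The higher shares were 20.8% and 37.5%, against 16.0% and 31.1% of all genes. The lower shares were 58.3% and 25%, against 37.0% and 18.3%. Of the 24, 2 passed the filter through the libraries labelled hPRM1 alone and 1 through hPRM2 alone. FTL, the ferritin light chain, had 1807, 1732 and 1522 RPKM in the libraries labelled hPRM1 and 768, 684 and 649 RPKM in hPRM2, and was higher in both scalings. FTH1, the heavy chain, had 1185, 1401 and 1479.9 RPKM against 1449.8, 1238 and 1329 RPKM. These FTH1 values overlapped, with a difference of 0.01 and a 95% interval of -0.43 to 0.46 as deposited, but of 1.95 (1.503 to 2.40) after rescaling. FTH1 has processed pseudogenes, with which reads may be shared. TXN (thioredoxin) had 15.8, 13.9 and 17.2 RPKM against 2898, 1885 and 1836 RPKM and SOD1, the cytosolic superoxide dismutase, 28.4, 31.4 and 21.8 RPKM against 1638, 918 and 989 RPKM. The other higher genes were SLC40A1, the iron exporter, NCOA4, the ferritin receptor of autophagy, CAT (catalase) and HMOX1, which breaks down heme, of which CAT had the highest levels, 53.5 to 115 RPKM against 4.63 to 8.18 RPKM.
Stress response genes gave 2 higher and 7 lower of 18, and 6 and 4 after rescaling. These shares, 11.1% and 38.9% as deposited and 33.3% and 22.2% after rescaling, were near those of all genes (16.0% and 37.0%, and 31.1% and 18.3%), so that the list as a whole gave no result. JUN, an AP-1 subunit, had 2.02, 3.10 and 4.07 RPKM against 275, 466 and 324 RPKM, while its relative JUNB had 67.0, 98.5 and 95.4 RPKM against 35.3, 9.505 and 18.2 RPKM. JUN fell in both scalings and JUNB rose in both, as did ZFP36, which destabilizes cytokine mRNAs. JUNB lost its call as deposited without replicate 2 or replicate 3 of the libraries labelled hPRM1.
Among genes of stress-induced arrest and survival 2 of 12 were higher (BCL2L1 and BCL2A1, inhibitors of apoptosis) and 5 lower, and 5 and 3 after rescaling. The deposited shares, 16.7% and 41.7%, were near the 16.0% and 37.0% of all genes. The rescaled shares were 41.7% higher and 25% lower, against 31.1% and 18.3% of all genes. Of the 12, 1 passed the filter through the libraries labelled hPRM1 alone. BCL2L1 had 39.8, 37.0 and 37.2 RPKM against 0.707, 0.736 and 2.64 RPKM. BIRC5 (survivin), which also acts in mitosis, had 0.143, 2.75 and 0.0871 RPKM against 238, 206 and 156 RPKM. CDKN1A (p21), an inhibitor of cyclin-dependent kinases, had 6.45, 6.77 and 5.65 RPKM against 77.7, 63.8 and 43.8 RPKM and 37.8 to 39.0 RPKM in the empty vector.
In the glycolysis, stress, iron, DNA methylation and survival lists the median changed sign with the scaling. Members named as exceptions to their list were chosen after their values were seen.

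Some short RNAs were among the largest falls from hPRM2 to the libraries labelled hPRM1, and others were among the largest rises, as given above. Of all 125 tested genes typed as small RNAs, without rRNA, 27 (21.6%) were lower and 22 (17.6%) higher as deposited. The shares of all genes were 37.0% and 16.0%, so that small RNAs did not fall as a class. After rescaling 18.4% were lower and 21.6% higher, against 18.3% and 31.1%. BCYRN1 (BC200), a primate transcript of RNA polymerase III that represses translation, had the highest mean level in hPRM2. Its longest run of A in GENCODE 29 is 11 bases, and 5.26% of all 206694 GENCODE 29 transcripts, but 0.792% of those of at most 300 bases, hold a run as long.
BCYRN1 had 57.5, 187 and 21.5 RPKM in the libraries labelled hPRM1, 1141875, 14664017 and 12031251 RPKM in hPRM2 and 1369516, 1058981 and 1462932 RPKM in the empty vector. All hPRM2 values lay above all values of the libraries labelled hPRM1, and replicate 1 of hPRM2 was at the level of the empty vector. The difference was -16.51 (SE 1.197, limma adjusted p = 1.96e-04) and -14.59 after rescaling. BCYRN1 has many near-identical copies in the genome, so that its value is uncertain, and RPKM of an RNA this short divides by a short length, so that few reads give a high value. The length behind the deposited values appeared shorter than the annotated one, which would raise the values of short RNAs further.
RN7SL2, an RNA of the signal recognition particle, had 938, 1019 and 533 RPKM against 16084, 32929 and 24206 RPKM, where the empty vector had 1033 to 1093 RPKM. The 122 bases of BCYRN1 before its first A run align to RN7SL2 with 76% identity. RNU4ATAC and RNU6ATAC, small RNAs of the minor spliceosome, had 6367, 28187 and 37046 RPKM and 535, 88213 and 83215 RPKM in hPRM2, against 200.05, 446 and 179.5 RPKM and 0. Of 24 small RNAs of this list 12 passed the filter, 2 of them through hPRM2 alone. Of the 12, 6 were lower and none was higher in both scalings, where 37.0% and 18.3% of all genes were lower. Without replicate 1 of hPRM2 9 were lower. VTRNA1-1, a vault RNA, and SNORD3A (U3), which acts in rRNA processing, were the remaining lower members.

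The 5S family was low in the libraries labelled hPRM1 as well. 5S rRNA is a part of the large ribosomal subunit made by RNA polymerase III from tandem gene copies, with many pseudogenes elsewhere. Of 10 members 5 passed and were called lower in both scalings, as was RNA5SP226, which is outside the list, but 4 of the 5 passed through hPRM2 alone, so that the count is a description. RNA5S12, a gene copy, had 85.1, 119 and 0 RPKM in the libraries labelled hPRM1, 684652, 3872570.2 and 3838258 RPKM in hPRM2 and 11049.6, 22062 and 20964 RPKM in the empty vector. RNA5SP530 and RNA5SP452 were listed at 0 outside hPRM2, where they had 8531, 43822 and 35662 RPKM and 470.4, 5684 and 5431 RPKM. RNA5SP226 had 5429, 33369 and 28918 RPKM in hPRM2, 0 in the libraries labelled hPRM1 and 0, 596 and 0 RPKM in the empty vector. In each case replicates 2 and 3 of hPRM2 were at least 4 times as high as replicate 1.
Identity to RNA5S12 over an end-to-end alignment of the GENCODE 29 sequences was 84.3% for RNA5SP530, 85.8% for RNA5SP226 and 89.9% for RNA5SP452. Of the first 89 bases of RNA5SP226 88 matched and of its last 26 bases 15 did. Reads of a gene copy and of its pseudogenes may have been divided among them, and the longest A run in these 4 sequences is 4 bases.
Long non-coding RNAs gave 11 lower and 0 higher of 15, and 8 lower and 2 higher (MALAT1 and TUG1) after rescaling, against 37.0% and 18.3% of all genes lower. SNHG8, a snoRNA host gene, had 62.7, 34.1 and 62.3 RPKM against 859.6, 1858 and 1736 RPKM. MALAT1, a nuclear RNA of speckles, had 1023, 1389 and 1092 RPKM against 2075, 2193 and 1847 RPKM, lower in every library but by less than 2-fold (-0.81), and 1.13 after rescaling.

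The largest falls among protein-coding genes joined genes at 0 in the libraries labelled hPRM1 to genes that were high in hPRM2 alone. CYB5D2, a heme-binding membrane protein, had 2.26, 3.15 and 2.71 RPKM in the libraries labelled hPRM1, 1202, 7566 and 6424 RPKM in hPRM2 and 171, 192 and 149 RPKM in the empty vector. SETDB2, a histone H3 lysine 9 methyltransferase, had 2.13, 1.02 and 0.265 RPKM, 382, 1573 and 1256 RPKM and 18.2, 40.4 and 19.96 RPKM in the same order. For both genes the hPRM2 values were the highest of the 9 libraries, with replicate 1 the lowest of its group.
LAPTM4B, a lysosomal membrane protein, had 0.136, 0.244 and 0.131 RPKM against 283, 494 and 471 RPKM, and CDKN2A, the locus of p16 and ARF, 0.762, 3.24 and 1.38 RPKM against 1738, 687 and 461 RPKM. RPL22L1, a paralogue of a ribosomal protein, had 0.739, 1.10 and 0 RPKM against 1189.8, 287 and 693 RPKM. LARP6, an RNA-binding protein, and RPL36A-HNRNPH2, a read-through gene that overlaps its 2 parents and is therefore uncertain, were listed at 0 in the libraries labelled hPRM1 and had 155 to 599 RPKM and 429 to 5969 RPKM in hPRM2. In the empty vector LAPTM4B, CDKN2A and RPL22L1 had 62.1 to 86.1, 545 to 769 and 1114 to 1379.8 RPKM.

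Some abundant genes were called in neither scaling. SON, a splicing cofactor of nuclear speckles, had 1388, 664 and 898 RPKM in the libraries labelled hPRM1 and 2874, 781 and 1139 RPKM in hPRM2, a difference of -0.54 with a 95% interval of -1.85 to 0.77. PFN1 (profilin), an actin-binding protein, had 243, 287 and 290.4 RPKM against 922, 393 and 395 RPKM (-1.87 to just below 0). Each of these intervals reaches past a 2-fold fall, so that a difference of that size was not shown to be absent.
EMC10, a subunit of a membrane protein insertase, had 6.51, 7.84 and 6.65 RPKM against 7.87, 2779.8 and 2649.9 RPKM, and SPDL1, a spindle checkpoint protein, 9.20, 0 and 12.8 RPKM against 6.86, 1268 and 1106 RPKM. Both missed the threshold with replicate 1 of hPRM2 at the level of the libraries labelled hPRM1 and the other 2 replicates far above it. EIF4E2, a cap-binding protein, and RBMX, an RNA-binding protein, also had a low value in replicate 1 of hPRM2, at 94.2 and 155 RPKM, against 94.2 to 1959 RPKM and 155 to 1242 RPKM over the group.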

How the data were processed

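RNA of 3 groups of 3 libraries was measured, and the 6 libraries labelled hPRM1 and hPRM2 entered the comparison. Reads were trimmed, aligned to hg38 and counted with STAR and Salmon by the authors, who removed mitochondrial genes and deposited RPKM values per gene, scaled to each library's total count. Counts were not used here. Gene names came from GENCODE 29. Depth was estimated from the step that 1 read gives in low RPKM values of genes with 1 transcript of 600 to 20000 bases. The steps lined up best with 250 bases taken off the annotated length (1980 values in peaks, against 141 with 0 taken off). A floor of 3 reads was used for values of 0, which covers counting error only.

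From the deposited RPKM, log2(RPKM + 1) was tested with limma 3.58.1 (R 4.3.3, moderated with trend and robust estimation, Benjamini-Hochberg adjustment over all 11756 genes) for genes at 1 RPKM or more in at least 3 of 6 libraries. A gene was called at an adjusted p of at most 0.05 and a difference of at least 2-fold. Adjusted p-values in the text come from this test. The same fit was made after median-of-ratios rescaling. The procedure was tested on simulated data in which both groups had the spread of the libraries labelled hPRM1. The median standard deviation was 0.30 in those libraries and 0.86 in hPRM2, so that the simulation does not check the error rate at the spread of hPRM2. Single values per library were compared by two-sided exact permutation tests.

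The members and gene lists were chosen with earlier results of these data known. Named genes were PRM1, PRM2 and HBB, and the 4 members of each list with the highest mean RPKM. The 5 highest genes of each group and the 8 highest protein-coding genes called in neither scaling were added. So were the 12 largest rises and falls among protein-coding genes and the 5 largest among other genes. For these rises and falls the groups had to be apart as deposited, and the call had to hold in both scalings. Other members named, and exceptions to a list, were chosen after their values were seen. Genes whose level can depend on a person were not named, and some genes and sequences are not reported here. Alternatives were another added value, filter, scaling, model, test and fold, the replicate block, and each library left out.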

Additional observations from a re-analysis of the deposited data

How the results depend on the processing

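Counting each named gene under each alternative once, 2460 values kept their direction and side of the threshold, 85 lost the call, 42 gained it and 27 turned direction. Higher genes numbered 922 at a minimum of 10 RPKM, 3657 after median-of-ratios rescaling, 2897 after quantile normalization, 3531 with the replicate block and rescaling, and 1098 by a per-gene test on log2 values. Lower genes numbered 2828, 2149, 3104, 2051 and 2388 in that order. The median difference was -0.63 with an added 5 RPKM, -0.48 without a filter, -1.69 at a minimum of 10 RPKM, -0.19 after quantile normalization and 0.49 after rescaling, with or without the block. Leaving out 1 library gave 1540 to 2132 higher and 3259 to 5563 lower genes and a median of -1.11 to -0.87. With rescaling, chosen after the data were seen, leaving out hPRM1-labelled replicates 1, 2 and 3 gave 2901, 2887 and 2889 higher and 1561, 1511 and 1500 lower genes, and leaving out hPRM2 replicates 1, 2 and 3 gave 3655, 3528 and 3538 higher and 2931, 1979 and 1912 lower genes. For genes at 1 RPKM or more the difference was -2650 to -367 with a library left out, and 2149 for genes above 0 RPKM. The cause was not tested.

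Replicate numbers did not pair the libraries: deviations of same-numbered libraries correlated at 0.105, 0.0750 and 0.0127. With the replicate block 1797 genes were higher and 4019 lower.

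After rescaling, with or without the block, the difference was 0.61 for ACTG1, 1.79 for H3-3A, 1.56 for MBD4, 0.48 for PRPF8, 0.15 for EEF2, 0.65 for PABPC1 and 1.13 for MALAT1. Rescaling alone gave 1.03 for LCK and 1.204 for SPIB, and with the block 1.40 for SON. Quantile normalization gave 1.15 for ACTG1, 2.61 for H3-3A, 1.14 for MBD4, 0.60 for PRPF8, 1.198 for EEF2, 1.25 for PABPC1, 1.75 for MALAT1, 1.53 for CCL5, 1.97 for SON and 1.15 for PFN1. GP1BB, ACTG1, DKC1, GINS3, PRPF8, PABPC1, JUNB and IFITM3 lost their call when 1 library was left out. The lower depth of hPRM2 limits genes near 1 RPKM most.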

Other observations

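The empty vector libraries take part in no comparison above, but they separate genes that were high in hPRM2 from genes that were low in the libraries labelled hPRM1. Genes were listed, by a rule chosen after the data were seen, where every library of a group reached 10 RPKM and was at least 5-fold above every library of both other groups. This held for 56 genes in hPRM2, 405 in the libraries labelled hPRM1 and 19 in the empty vector, and these counts are a description. Of the 56 genes 25 are protein-coding, 8 are antisense and 6 long intergenic RNAs, and 6 are 5S genes or their pseudogenes.

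KRT8 (keratin 8), an intermediate filament protein of simple epithelia, had 139.6, 235 and 162 RPKM in hPRM2, at most 27.5 RPKM in the empty vector and at most 0.997 RPKM in the libraries labelled hPRM1. SYP (synaptophysin), a protein of synaptic vesicles, had 131, 174 and 127 RPKM in hPRM2 and 10.1 to 19.6 RPKM in the empty vector. KRT8, SYP and the genes named below were picked from those listed by the rule above, so that their place above the other groups followed from it. CAND1, which exchanges the substrate receptors of cullin ubiquitin ligases, had 207, 347 and 326 RPKM in hPRM2 and at most 33.6 RPKM in the other groups. SPRTN, a protease that removes proteins crosslinked to DNA, had 355, 657 and 521 RPKM in hPRM2 and at most 40.3 RPKM elsewhere.

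SPEM1, a protein of spermatid maturation that is on none of the lists, had 22.1, 12.9 and 12.7 RPKM in hPRM2 and was listed at 0 in the 6 other libraries. TPRA1, a membrane protein, had 151, 65.9 and 38.9 RPKM in hPRM2 and was likewise listed at 0 elsewhere. In the empty vector, WDR90, a protein of the centriole, had 162, 161 and 178 RPKM, at most 27.5 RPKM in hPRM2 and at most 12.5 RPKM in the libraries labelled hPRM1.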
